A study of Mus musculus with 12 samples.

Results

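Of the 12 mouse kidney libraries in the series, 3 were low in transcripts of the proximal tubule, the nephron segment that takes back most of the glucose, amino acids and phosphate from the filtrate. They are wildtype 4, Grhl2KO_Myc 3 and Grhl2KO_Myc 4, called the low libraries here, and they were compared with the other 6 libraries of the same genotypes, wildtype 1, 2, 3 and 5 and Grhl2KO_Myc 1 and 2. The 3 were chosen from these same data by their proximal tubule transcripts, so differences between low and other libraries are given as a description, without p-values. Each library holds polyadenylated RNA of 1 entire right kidney from untreated mice whose age the labels do not state. Wildtype mice carried R26StopFLMYC, a MYC transgene at the Rosa26 locus behind a removable stop cassette, together with Grhl2 flox/flox. Grhl2KO_Myc mice, in which the labels describe a Grhl2 knockout with Myc overexpression, came from a cross of HoxB7-Cre; Grhl2flox/+ with R26StopFLMYC; Grhl2flox/flox. HoxB7-Cre acts in the ureteric bud and in the collecting ducts that arise from it, not in the proximal tubule. By the cross, both groups share floxed Grhl2 alleles and the transgene. Whether each library came from a mouse of its own is not stated, and the 3 libraries of the Myc group do not enter the comparison.

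Proximal tubule cells run on fatty acids, which they oxidise in abundant mitochondria and peroxisomes, and they carry transporters on a brush border facing the urine. Their identity depends on transcription factors such as HNF4A, and the nuclear receptor PPARA drives their genes of fatty acid oxidation. Mouse nephrons are still being formed at birth from progenitors marked by Six2, and proximal tubules go on maturing after birth. In RNA of a whole kidney, fewer cells of a type and less RNA per cell cannot be told apart.

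Levels are TMM-scaled CPM, in which a gene's counts are set against all counts of its library, and the values of the low libraries are given in the order wildtype 4, Grhl2KO_Myc 3 and Grhl2KO_Myc 4. The phosphate transporter gene Slc34a1 (chromosome 13, 55398187 to 55415592, plus strand, mm10) was at 225, 259.8 and 295 CPM in the low libraries. It was at 605 to 1240.2 CPM (median 886) in the others. The organic anion transporter gene Slc22a6 (chromosome 19, 8618039 to 8628299, plus strand) was at 75.8, 84.7 and 91.6 CPM, against 175 to 285 CPM (median 219.6) in the others. Both markers separated the libraries without overlap. Lrp2, the gene of the endocytic receptor megalin, was at 249.7, 325 and 329 CPM against 419 to 709 CPM (median 554) in the others, also without overlap, and its fitted difference of -0.83 on the log2 scale (SE 0.21) was the smallest of the 3 markers, and -0.50 without wildtype 4. These markers are part of what chose the libraries, and their levels match the label.

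**Figure D1:**
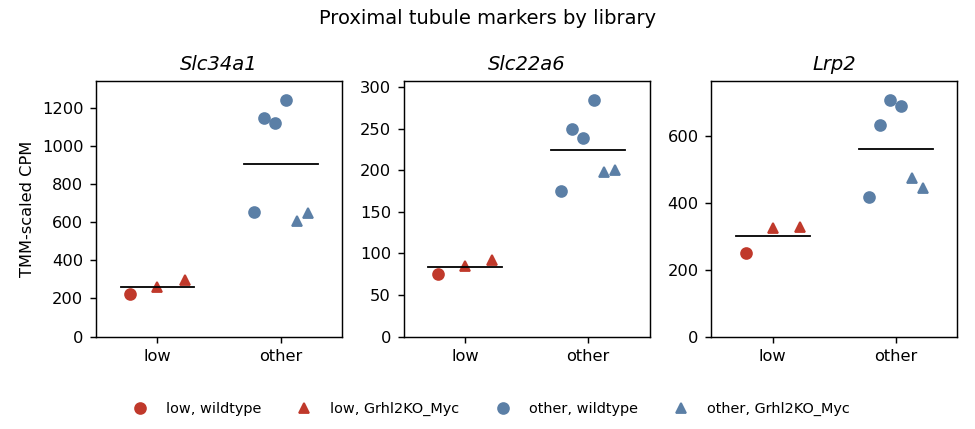
TMM-scaled CPM (vertical axis, linear from 0) of Slc34a1, Slc22a6 and Lrp2 in the 3 low and 6 other libraries. Each point is 1 library, circles are wildtype, triangles are Grhl2KO_Myc and the line is the mean of the class. No low library reaches the lowest other library in any panel.

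The split is not equally wide everywhere. A score over the 77 tested genes of 4 proximal tubule lists, the mean log2 CPM relative to the mean of the 6 other libraries, was -1.54 in wildtype 4, -1.19 in Grhl2KO_Myc 3 and -1.10 in Grhl2KO_Myc 4. The member nearest the border was Grhl2KO_Myc 4, and the nearest library outside was wildtype 1 at -0.40, followed by Grhl2KO_Myc 2 at -0.26. In a score made the same way over all 12 libraries, the 3 Myc libraries lay at -0.29, -0.02 and -0.07. The 4 lists held 0.377%, 0.439% and 0.455% of the counts in the low libraries and 0.793% to 1.20% in the others. Fitted with genotype as a term, 50 of the 77 genes lay at least 2-fold lower without overlap (1.77% of all genes did), with a median of -1.32. Proximal tubule genes define the split, so these counts are a description. In 62 of the 77 the low libraries were lower without overlap (7.64% of all genes were). Cyp7b1 was higher in each low library, and the rest overlapped, among them Cyp4b1, Slco1a1 and Cyp27b1. Cyp27b1, the enzyme gene that activates vitamin D, was at 82.0, 26.6 and 31.6 CPM against 25.4 to 85.5 CPM (median 48.2) in the others.

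Several other measures moved with the split or across it, and their part in the results was not tested. Total counts were 71069527, 91359790 and 108164810 in the low libraries and 52973520 to 98713157 in the others. Mitochondrially encoded genes took 4.45% to 4.96% of the counts in the low libraries and 4.85% to 6.17% in the others. Genes at which ribosomal RNA is often counted took 0.264% to 0.581% against 0.176% to 0.568%. The Y-linked gene Ddx3y was at 62.7 to 80.9 CPM in wildtype 5, Grhl2KO_Myc 1 and Grhl2KO_Myc 4, Xist was at 869 to 996 CPM in wildtype 1 to 4 and Grhl2KO_Myc 2, and Grhl2KO_Myc 3 had neither, so the low libraries differed among themselves in these transcripts. Across genes the fitted difference and the exon width had a Spearman rho of -0.06 over 23928 genes.

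Of 46403 genes in the table, 23928 passed the expression filter. A gene is said to stand apart where each low library lies on the same side of all 6 others and the fitted difference is at least 2-fold. By this measure 423 genes (1.77% of those tested) stood apart as lower in the low libraries and 50 (0.209%) as higher. Outside the 4 proximal tubule lists, 373 of 23851 genes (1.56%) were lower and 50 (0.21%) higher. Most genes that stood apart were thus not on the lists that describe the split. Those lists hold only 77 tested genes, and a gene outside them can still be one of the proximal tubule, as Ace is. How many of the 373 are was not tested. With a 1.5-fold border these counts were 866 (3.62%) lower and 131 (0.547%) higher. The median difference over all genes was 0.00. The count of higher genes rests on weakly expressed genes: it was 3 among genes of at least 1 CPM in 3 libraries. It was 80, 102 and 113 without Grhl2KO_Myc 2, 3 or 4, where fewer libraries must separate, so a rise is partly built in.

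Outside the proximal tubule lists several of the largest differences were in genes of fatty acid metabolism. Cyp4a14, a fatty acid omega-hydroxylase (chromosome 4, 115486200 to 115496142, minus strand), was at 0.741, 2.42 and 1.70 CPM in the low libraries and 19.6 to 131 CPM (median 37.5) in the others. The low libraries were far below the others, with a fitted difference of -5.42 (SE 0.65), or 42.8-fold. Without Grhl2KO_Myc 1 the difference was 25.2-fold. Its relatives Cyp4a10, Cyp4a32 and Cyp4a31 differed by -3.72, -3.23 and -1.43. These 4 genes are related neighbours on chromosome 4. The sources used here do not say how reads that match several of them were counted, so their separate values are uncertain. Ehhadh, the bifunctional enzyme of peroxisomal beta-oxidation (chromosome 16, 21761287 to 21787807, minus strand), was at 14.9, 28.0 and 24.6 CPM and 56.9 to 263 CPM (median 111) in the others. It is not part of that gene cluster, and it too showed no overlap, at -2.84 (SE 0.39).

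The difference ran through the listed pathway. All 31 listed genes of fatty acid oxidation and peroxisomes had a fitted difference below 0, with a median of -0.53 against 0.00 over all genes. In 25 of the 31 the low libraries did not overlap the others (7.64% of all genes were lower without overlap), and 5 were also at least 2-fold lower. The carnitine transfer genes Cpt1a and Cpt2 were at -0.63 (SE 0.13, or -0.41 without wildtype 4) and -0.68 (SE 0.12), and the medium-chain acyl-CoA dehydrogenase gene Acadm at -0.66 (SE 0.10). Acadm was at 133, 152 and 151 CPM in the low libraries and 194 to 252 CPM (median 235) in the others. Catalase, encoded by Cat, was at -0.50 (SE 0.11), and Echs1, which acts in mitochondrial beta-oxidation, at -0.12, the smallest difference of the list. Wildtype 1 was the lowest of the other 6 libraries for much of the list, including Ehhadh, Cpt1a and Acadm.

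A list of 20 genes known to respond to peroxisome proliferators through PPARA was put together after the largest differences had been seen. It shares Cyp4a14 with the list of fatty acid oxidation, so its counts are a description and no separate support. Of the 20, 9 stood apart as lower (1.77% of all genes did), all 20 were below 0 and the median was -1.43. Vnn1, a pantetheinase gene, was at 6.25, 15.1 and 15.9 CPM and 27.9 to 89.2 CPM (median 43.5) in the others. Acot3, which encodes a peroxisomal acyl-CoA thioesterase and has close relatives in its gene cluster, was at 3.93, 11.5 and 11.9 CPM and 23.0 to 57.2 CPM (median 37.1) in the others. Neither gene overlapped between the classes. In Grhl2KO_Myc 1 Cyp4a14, Cyp4a10, Ehhadh and Vnn1 had their highest level of the 9 libraries.

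The oxidative phosphorylation genes of the nucleus differed much less. Their median was -0.12 over 25 genes, none of which stood apart, and the median was -0.20 without wildtype 4. All 13 protein-coding genes of the mitochondrial genome were below 0, with a median of -0.38. Of these, 2, mt-Co1 and mt-Atp8, were lower without overlap (7.64% of all genes were). Without wildtype 1, 12 of the 13 were, but fewer libraries must then separate in every gene, and the share over all genes is not given for that run. The mitochondrial score of wildtype 1 (-0.35) was lower than those of Grhl2KO_Myc 3 and 4 (-0.31 and -0.24), so the mitochondrial genome did not separate the classes as the oxidation genes did.

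**Figure D2:**
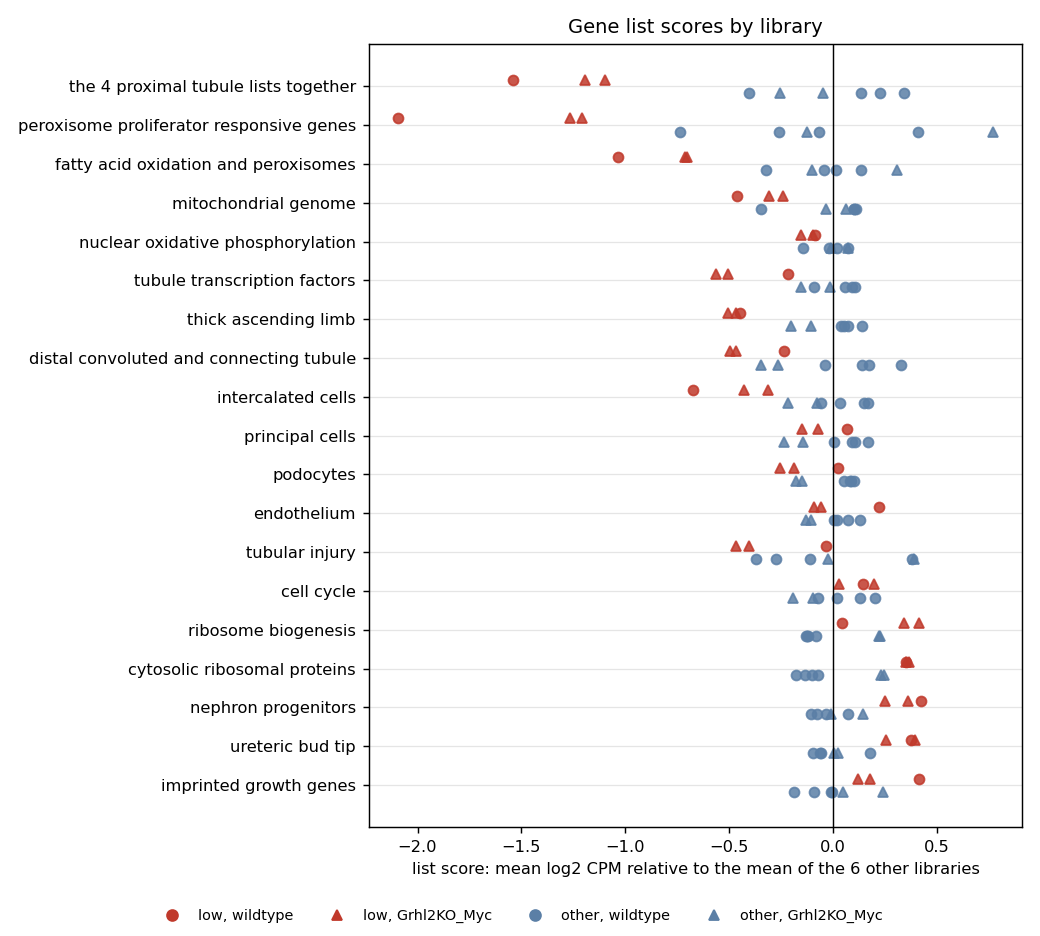
Score of 19 gene lists in each library (horizontal axis, mean log2 CPM relative to the mean of the 6 other libraries). Red points are low and blue points other libraries, circles are wildtype and triangles Grhl2KO_Myc. The low libraries lie to the left of all others for fatty acid oxidation, the thick ascending limb and intercalated cells, and to the right for ribosomal proteins, nephron progenitors and ureteric bud tip.

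Among 12 transcription factors of the tubule the median was -0.30, and 1 stood apart (1.77% of all genes). That count was 0 without Grhl2KO_Myc 1 or Grhl2KO_Myc 3 and 3 without wildtype 4. Hnf4g, a relative of Hnf4a, was at 1.01, 1.00 and 1.24 CPM and 1.79 to 2.71 CPM (median 2.12) in the others, with a fitted difference of -1.04 (SE 0.17). Hnf4a overlapped, at 161, 98.2 and 109 CPM against 121 to 223 CPM (median 159) in the others: wildtype 4 lay among the other wildtype libraries. Ppara, the receptor gene itself, was at 2.48, 1.16 and 0.954 CPM against 2.11 to 3.82 CPM (median 2.72) in the others, so it was low in Grhl2KO_Myc 3 and 4 and not in wildtype 4. Ppargc1a, a coactivator of mitochondrial genes, was at 0.02 (SE 0.094), or -0.17 without wildtype 4.

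The coagulation factor XIII subunit gene F13b (chromosome 1, 139501702 to 139523752, plus strand) was among the lowest genes outside the lists, at 0.490, 1.18 and 1.09 CPM in the low libraries and 5.55 to 15.6 CPM (median 12.2) in the others, a fitted difference of -3.47 (SE 0.48), or -2.85 without wildtype 4.

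The windows of RefSeq promoters from 250 bases before to 50 bases after the gene start (GRCm38.p6) were searched on both strands for AGGNCANAGGNCA, letters of the direct repeat bound by HNF4A and PPARA, picked after the lower genes were known. A window was found for 13595 of the 23928 tested genes and 284 of the 423 lower genes. The letters were in 3 of the 284 (1.06%) and in 48 of the 13595 (0.353%), of which the 284 are part. The 423 lower genes include 50 of the proximal tubule lists, which define the split, and no share was computed without them. They were in none of the windows of 17 higher genes. A match of letters is a description, not a binding site, and 3 matches are few. The 3 windows are shown because they hold the letters, in capitals, in lower genes of different function. They are Slc13a4, a sulfate transporter gene at -2.31 (minus strand, chr6:35308077-35308376), F7, the coagulation factor VII gene at -1.34 (plus strand, chr8:13025784-13026083), and Pdzk1, a brush border scaffold gene of the proximal tubule lists at -1.04, or -0.58 without wildtype 4 (plus strand, chr3:96829815-96830114).
Slc13a4: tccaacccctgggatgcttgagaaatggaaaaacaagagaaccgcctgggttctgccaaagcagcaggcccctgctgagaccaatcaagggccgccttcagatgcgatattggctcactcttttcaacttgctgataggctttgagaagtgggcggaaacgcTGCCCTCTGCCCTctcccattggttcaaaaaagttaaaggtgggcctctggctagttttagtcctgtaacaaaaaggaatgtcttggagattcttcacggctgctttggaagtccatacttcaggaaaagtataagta
F7: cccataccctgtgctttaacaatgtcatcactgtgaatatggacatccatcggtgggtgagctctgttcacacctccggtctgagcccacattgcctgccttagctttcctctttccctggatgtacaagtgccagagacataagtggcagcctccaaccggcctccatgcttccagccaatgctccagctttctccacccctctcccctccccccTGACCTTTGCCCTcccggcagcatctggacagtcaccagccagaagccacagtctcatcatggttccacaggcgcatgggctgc
Pdzk1: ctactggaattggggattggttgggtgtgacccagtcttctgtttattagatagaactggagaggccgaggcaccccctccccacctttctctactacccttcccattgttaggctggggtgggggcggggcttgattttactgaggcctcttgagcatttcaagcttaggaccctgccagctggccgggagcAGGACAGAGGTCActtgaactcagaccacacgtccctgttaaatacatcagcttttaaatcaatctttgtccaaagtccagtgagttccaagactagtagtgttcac

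Other genes with the largest differences included transporters and enzymes that none of the lists held. Slc10a1, a sodium-bile acid cotransporter gene, was at 0.126, 0.591 and 0.486 CPM and 1.81 to 5.53 CPM (median 3.17) in the others. Rdh19, a retinol dehydrogenase gene with near-identical relatives, was at 3.51, 10.9 and 10.5 CPM and 26.5 to 61.3 CPM (median 46.4) in the others. In both genes wildtype 4 was the lowest library and no low library reached the others. Nepn, which encodes the secreted protein nephrocan, differed by -2.55 (SE 0.39), or -1.87 without wildtype 4, and Slc13a2os by -2.50 (SE 0.35). The latter is antisense to the dicarboxylate transporter gene Slc13a2, itself at -2.03, and the library kit does not mark strand, so reads of the pair cannot be told apart. Nlrc5, a regulator of MHC class I genes, met the same rule at -2.47 (SE 0.88), or -1.31 without Grhl2KO_Myc 2 and -3.12 without wildtype 4, but its level was 0.714 to 6.11 CPM (median 1.10) in the others, and only wildtype 5 and Grhl2KO_Myc 2 were above 1.21 CPM.

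In the thick ascending limb, which dilutes the urine, 14 of 15 genes were below 0, 9 were lower without overlap (7.64% of all genes were) and the median was -0.39. Umod and Egf stood apart (2 of 15, against 1.77% of all genes), and without wildtype 4 none did. Umod, the gene of uromodulin, was at 159.6, 162 and 145 CPM and 239.8 to 446 CPM (median 407) in the others. Egf, the epidermal growth factor gene, was at 3.94, 4.71 and 4.68 CPM and 7.18 to 15.3 CPM (median 11.2) in the others. Both were lower in each low library, with differences of -1.02 (SE 0.13) and -1.13 (SE 0.21) respectively, or -0.75 and -0.74 without wildtype 4. Slc12a1, the salt transporter gene that defines the segment, was at 532, 521 and 485 CPM against 613 to 841 CPM (median 754) in the others, a difference of -0.42 (SE 0.079), and the claudin genes Cldn16 and Cldn19 were at -0.10 and -0.12.

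In the distal convoluted and connecting tubule, 2 of 14 genes stood apart (1.77% of all genes) and the median was -0.19, or -0.32 without Grhl2KO_Myc 1. Slc12a3, the thiazide-sensitive salt transporter gene, was at 74.4, 51.5 and 57.0 CPM and 123 to 217 CPM (median 186) in the others, with a fitted difference of -1.30 (SE 0.11). No low library came near the lowest of the others. Kl, the gene of the FGF23 co-receptor klotho, which proximal cells also express, was the other, at -1.01 (SE 0.31), close to the 2-fold border. It was at -0.47 without wildtype 4, and the count was 1 without wildtype 2, 4 or 5. By contrast Calb1, the calbindin gene of the same segments, was at 441, 167 and 225 CPM against 222 to 324 CPM (median 268) in the others, high in wildtype 4, and the kinase gene Wnk4 was at 0.10 (SE 0.076), or -0.09 without wildtype 4.

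Intercalated cells, the acid-base cells of the collecting duct, had a median of -0.60 over 16 genes, of which 4 stood apart (1.77% of all genes). Without wildtype 4 the median was -0.19 and only Oxgr1 stood apart, so both rest largely on that library. Atp6v1b1, a proton pump subunit gene, was at 35.8, 51.6 and 49.0 CPM and 85.8 to 108 CPM (median 91.3) in the others. Oxgr1, the gene of a receptor for oxoglutarate, was at 11.3, 9.18 and 9.0 CPM and 17.8 to 28.7 CPM (median 24.8) in the others. Both were low in each of the 3 libraries, as were the bicarbonate exchanger gene Slc4a1 and Insrr, at -1.01 (SE 0.14) and -1.06 (SE 0.23). Without wildtype 4 Oxgr1 was at -1.10, Atp6v1b1 at -0.81, Slc4a1 at -0.88 and Insrr at -0.58. Foxi1, the transcription factor gene of these cells, overlapped at 0.02 (SE 0.12), or 0.20 without wildtype 4. Principal cells, the partner type, had a median of 0.07 with none of 16 genes standing apart, a sign that turned to -0.07 without the genotype term and to -0.06 with wildtype 4 as the only low library. The water channel gene Aqp2 was at 551, 347 and 348 CPM against 213 to 400.4 CPM (median 344) in the others.

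No gene of the lists for cells outside the tubule stood apart, other than those of fat cells. The median was -0.05 over 16 podocyte genes and 0.08 over 20 endothelial genes, and Pecam1, a gene of endothelium, was at -0.09 (SE 0.08). The median was -0.27 for smooth muscle and pericytes, with 9 of 10 genes below 0, and their summed level was 1044, 1525 and 1137 CPM in the low libraries and 1397 to 1646 CPM in the others. It was -0.19 for macrophages and antigen presentation, with 14 of 17 below 0, and -0.16 for fibroblasts and matrix, with 12 of 16 below 0. Wildtype 4 was the lowest library for smooth muscle, and Grhl2KO_Myc 3 lay among the others. These medians move with single libraries: smooth muscle was at -0.06 without wildtype 4, macrophages at -0.04 without Grhl2KO_Myc 2, fibroblasts at -0.25 without Grhl2KO_Myc 1, endothelium at 0.026 and podocytes at -0.11 without wildtype 4, and podocytes at 0.0063 without Grhl2KO_Myc 1.

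Neutrophil and erythroid genes were highest in wildtype 4. The 8 neutrophil genes summed to 51.3, 28.7 and 29.2 CPM against 25.8 to 36.6 CPM in the others, with a median of 0.21, or -0.03 without wildtype 4. The 5 erythroid genes summed to 1801, 1126 and 639 CPM against 838 to 1048 CPM, with a median of 0.33, or -0.06 without wildtype 4. The 7 skeletal muscle genes summed to 8.32, 7.52 and 4.95 CPM in the low libraries against 5.44 to 132 CPM in the others. The 132 CPM were those of wildtype 2. Each of the 7 had a negative difference, and their median of -2.12 became -0.90 when that library was left out. Urothelial genes were lowest in Grhl2KO_Myc 4 and wildtype 4, with sums of 42.4, 129 and 26.5 CPM against 59.9 to 137 CPM in the others. The lymphocyte list summed to 14.6, 15.4 and 15.1 CPM in the low libraries against 11.5 to 15.6 CPM in the others. The adrenal list summed to 9.82, 7.09 and 8.74 CPM against 5.61 to 47.4 CPM, the highest in Grhl2KO_Myc 2. The part of these cells in the other results was not tested.

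Among 19 genes of tubular injury none stood apart and the median was -0.14. It lay between -0.24 without wildtype 4, when 3 genes stood apart, and -0.02 without wildtype 3, and 1 gene stood apart without wildtype 1 or wildtype 5. The injury genes Havcr1 and Lcn2 were at -0.62 (SE 0.37) and 0.05 (SE 0.13), Vcam1 was at -0.30 (SE 0.19), and Spp1, the osteopontin gene, was lower without overlap at 356, 299.7 and 305 CPM against 430.1 to 740.4 CPM (median 665) in the others. Of the immediate-early genes, Fos was at -0.46 (SE 0.28) and Egr1 at 0.39 (SE 0.15), both with overlap. Without wildtype 4 Havcr1 was at -0.01, Lcn2 at -0.21, Vcam1 at -0.68 and Fos at -1.18. Havcr1 was below 1 CPM in all 9 libraries.

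Genes of fat cells stood apart as well, at levels near the lowest that were counted. Adipoq, the adiponectin gene, was at 0, 0.183 and 0.0275 CPM and 0.454 to 2.54 CPM (median 1.22) in the others. Cfd, Cidec and Plin1, further adipocyte genes, were at no more than 0.0215, 0.0979 and 0.495 CPM in the low libraries and at no less than 0.0935, 0.428 and 0.695 CPM in the others. Of the 6 tested genes of the list, 4 stood apart as lower (1.77% of all genes did). In 5 of the 6 the difference was below 0, and the median was -3.17. The summed level of the 6 was not lower, at 230.2, 138 and 134 CPM in the low libraries and 121 to 164 CPM in the others. Adipoq made up at most 2.54 CPM of that sum in any library, so the sum does not describe the weakly expressed members. The part of attached fat in the other results was not tested.

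Genes of renal hormones and mineral balance followed in part. Ace, the gene of angiotensin-converting enzyme, which lies on the proximal brush border, was at 53.8, 70.3 and 73.6 CPM and 131 to 209 CPM (median 179) in the others, without overlap (-1.28, SE 0.19, or -0.89 without wildtype 4). The angiotensinogen gene Agt was at -0.93 (SE 0.19) and the renin gene Ren1 at -0.31 (SE 0.15), the latter with overlap. The receptor genes of parathyroid hormone and vitamin D, Pth1r and Vdr, were at -0.69 (SE 0.16, or -0.41 without wildtype 4) and -0.64 (SE 0.12), both without overlap. Cyp24a1, the enzyme gene that degrades vitamin D, was at 39.9, 7.71 and 5.99 CPM against 8.97 to 115 CPM (median 81.1) in the others: it was lowest in Grhl2KO_Myc 3 and 4, followed by wildtype 1, and wildtype 4 lay among the others. The glutathione transferase gene Gsta1 was at -1.20 (SE 0.21).

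**Figure D3:**
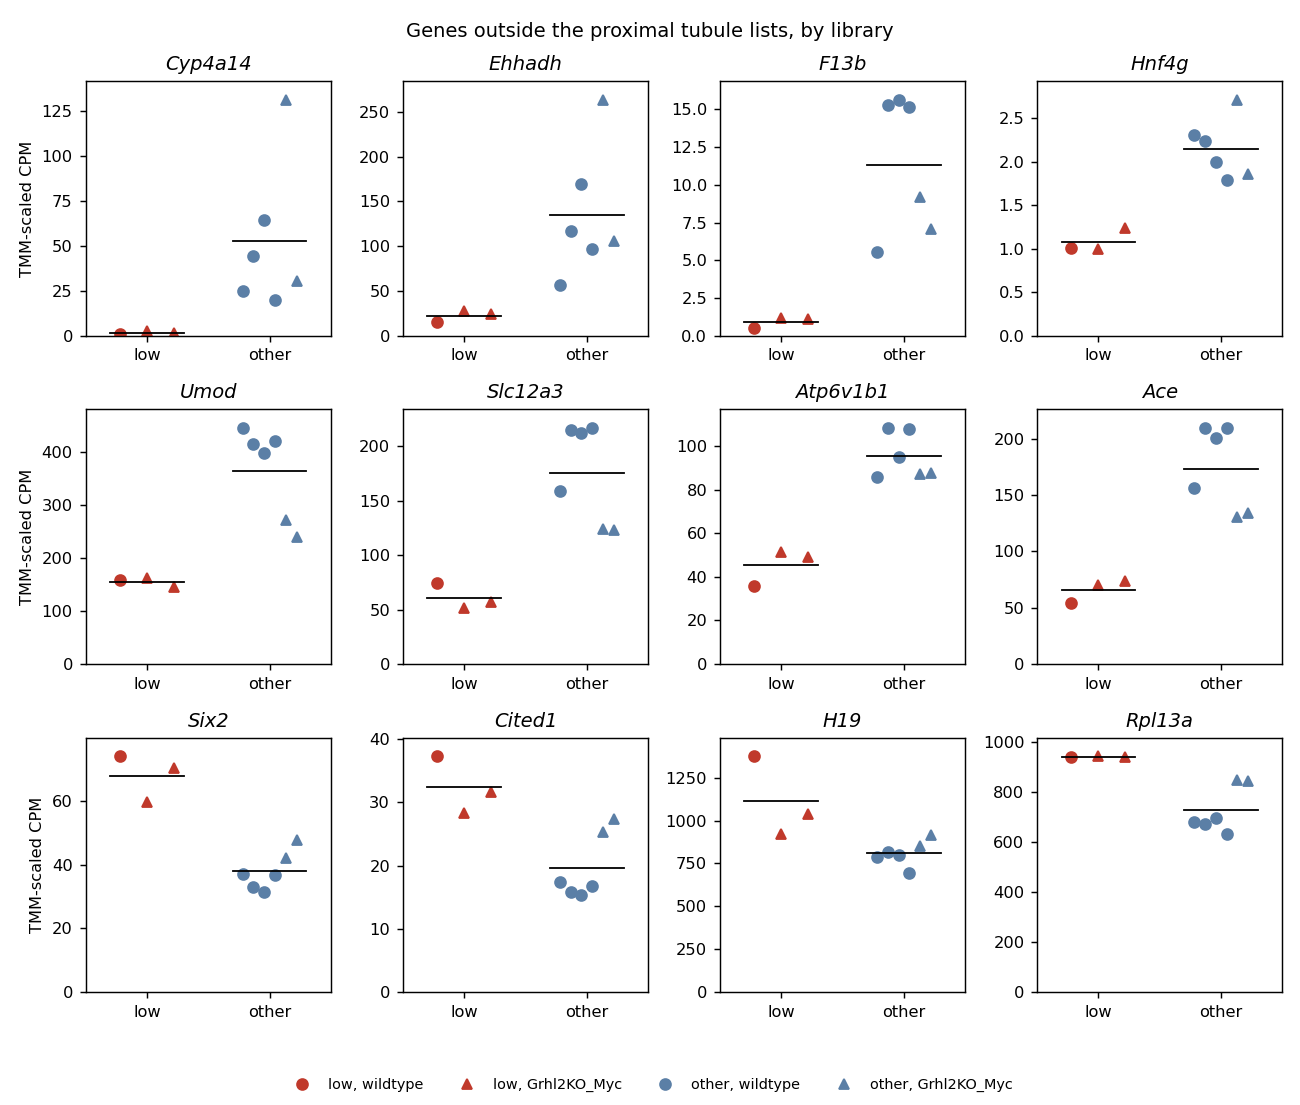
TMM-scaled CPM (vertical axes, linear from 0) of 12 genes outside the proximal tubule lists in the 3 low and 6 other libraries. Each point is 1 library, circles are wildtype, triangles are Grhl2KO_Myc and lines are class means. In the first 8 panels the low libraries lie below all others, by the widest margin in Cyp4a14, and in the last 4 (Six2, Cited1, H19 and Rpl13a) they lie above all others.

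Six2 and other genes of nephron progenitors were higher in the low libraries, by less than 2-fold. All 9 libraries held transcripts of nephron progenitors. Six2, which keeps these cells renewing (chromosome 17, 85684277 to 85688274, minus strand), was at 73.8, 59.4 and 70.1 CPM in the low libraries and 31.5 to 47.6 CPM (median 36.8) in the others. Each low library was above all others, with a fitted difference of 0.79 (SE 0.11), or 1.73-fold. Cited1, another progenitor gene, was at 37.3, 28.2 and 31.6 CPM and 15.4 to 27.3 CPM (median 17.1) in the others. Gdnf, which encodes the signal from progenitors to the ureteric bud, was at 46.2, 49.3 and 59.0 CPM and 28.0 to 35.5 CPM (median 29.1) in the others. Cited1 and Gdnf were each at 0.65 (SE 0.17 and 0.063), and for Cited1 Grhl2KO_Myc 3 exceeded Grhl2KO_Myc 2 by little. Without wildtype 4 Six2 was at 0.52 and Cited1 at 0.17.

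Over a list of 12 nephron progenitor genes, put together after values were seen, 6 were higher without overlap (6.64% of all genes were), none reached 2-fold, and the median was 0.36. Meox1, a member, was lower without overlap at -0.43. Over 8 genes of the ureteric bud tip, a list of the same origin, 4 were higher without overlap and the median was 0.34. Ret, the receptor gene for the Gdnf signal, was at 48.7, 43.1 and 48.0 CPM against 34.5 to 42.4 CPM (median 38.0) in the others, and Wnt11 at 0.26 (SE 0.11). The wider list of kidney progenitor and patterning genes had all 15 members above 0 and a median of 0.06, or 0.15 without wildtype 4, and 8 genes of early nephrons had a median of 0.04. Cell cycle genes had a median of 0.24 with none of 21 separated by class (5 without Grhl2KO_Myc 3, 4 without wildtype 4 and 1 without wildtype 5), and Mki67 was at 0.14 (SE 0.063).

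Imprinted genes of fetal growth were high chiefly in wildtype 4. H19 was at 1373, 919 and 1041 CPM against 696 to 916 CPM (median 809) in the others, and Igf2, the growth factor gene beside it, at 664, 483 and 550.3 CPM against 354 to 470.0 CPM (median 394) in the others. The low libraries were the highest 3 for both genes, and Grhl2KO_Myc 3 exceeded Grhl2KO_Myc 2 by little. The median over 14 imprinted genes, a list chosen after values were seen, was 0.27, or 0.13 without wildtype 4. Cytosolic ribosomal proteins were level among the low libraries, with scores of 0.35, 0.35 and 0.37. All 23 genes were above 0, 18 were higher without overlap (6.64% of all genes were) and the median was 0.28, but 0.11 without wildtype 4. Rpl13a was at 940.3, 942 and 938 CPM in the low libraries, 680.2, 672, 696 and 634 CPM in wildtype 1, 2, 3 and 5 and 848 and 844 CPM in Grhl2KO_Myc 1 and 2, so wildtype 4 lay at the level of the Grhl2KO_Myc libraries.

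Only 5 genes named by rule, with a mean of at least 1 CPM in 1 class, were at least 2-fold higher without overlap. Ifi27l2a, an interferon-induced gene, was at 12.4, 8.35 and 9.47 CPM and 2.93 to 5.38 CPM (median 3.78) in the others. Aire, a transcription regulator known from the thymus, was at 4.59, 2.06 and 1.92 CPM and 1.05 to 1.88 CPM (median 1.34) in the others. Both were highest in wildtype 4, with fitted differences of 1.46 (SE 0.18) and 1.17 (SE 0.22), the latter 0.73 without wildtype 4. The calcium-binding protein gene Ocm, the neuropeptide precursor gene Vgf and the nuclear receptor gene Rorb lay at no more than 1.67 CPM in any library and differed by 3.03 (SE 0.48), 1.56 (SE 0.44) and 1.13 (SE 0.18). Without wildtype 4 Ocm was at 1.96.

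The low libraries of the 2 genotypes share no comparison library when each is set against the others of its own genotype. Over 17887 genes of at least 1 CPM outside the proximal tubule lists, the difference of wildtype 4 from wildtype 1, 2, 3 and 5 and that of Grhl2KO_Myc 3 and 4 from Grhl2KO_Myc 1 and 2 had a Pearson correlation of 0.37 across genes, which are not independent replicates. It was 0.46 over 74 genes of the lists. Grhl2KO_Myc 3 and 4 correlated at 0.70 over the 17887 genes, with the same comparison libraries. Ehhadh differed by -2.77, -2.57 and -2.76, Slc12a3 by -1.42, -1.27 and -1.12 and Umod by -1.40, -0.66 and -0.82 in the 3 libraries. These 3 genes were thus lower in each. The heme oxygenase gene Hmox1 was at 181, 24.5 and 43.3 CPM against 21.1 to 76.1 CPM (median 48.0) in the others. The sodium channel gene Scnn1a was at 119.5, 34.8 and 34.7 CPM against 56.6 to 75.7 CPM (median 62.3) in the others. Neither moved alike: both were above all others in wildtype 4 alone, and Scnn1a was below all others in Grhl2KO_Myc 3 and 4.

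**Figure D4:**
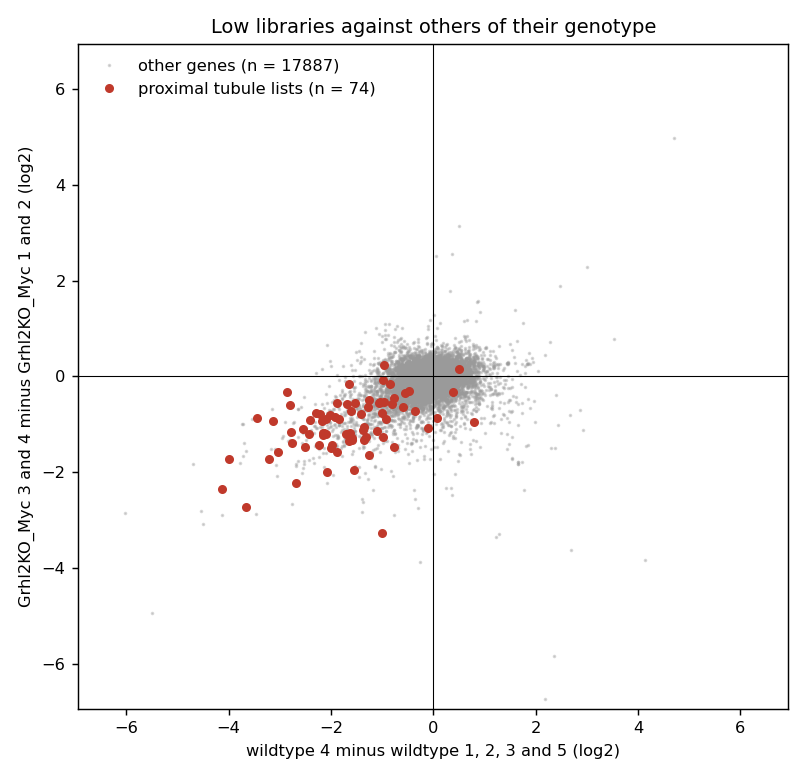
Log2 difference of wildtype 4 from the 4 other wildtype libraries (horizontal axis) against that of the mean of Grhl2KO_Myc 3 and 4 from Grhl2KO_Myc 1 and 2 (vertical axis), for genes of at least 1 CPM. Red points are 74 genes of the proximal tubule lists and grey points the 17887 other genes. Most red points lie in the lower left corner, and a tail of grey points lies there too.

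Because 1 of 5 wildtype and 2 of 4 Grhl2KO_Myc libraries were low, the genotypes were tested with the split as a term. The test was edgeR's quasi-likelihood test with Benjamini-Hochberg adjustment over all genes. The split was chosen from these same data but entered the fit as if known beforehand. The genotype p-values with the term do not account for that choice and may be too small. In Grhl2KO_Myc 786 genes (3.28%) rose and 597 (2.49%) fell against wildtype, 1383 (5.78%) in all. Without the split term 629 rose and 366 fell. Of these 995 genes 927 were called in both fits, all in the same direction, while 456 were called only with the term and 68 only without it. Among the 6 other libraries alone 888 rose and 777 fell, and 808 of those calls were shared with the fit of 9. The counts with the term depend on single libraries: they lay between 366 and 1220 higher and between 193 and 1077 lower, the lowest without Grhl2KO_Myc 1 and the highest without wildtype 4, and leaving out any library but wildtype 1 and wildtype 5 moved at least 1 of them by over 1.5 times. Of the 473 genes that stood apart by class, 12 (2.54%) were called for genotype, against 5.78% of all genes. To stand apart, the low libraries of both genotypes must lie on the same side of the others of both genotypes. A large genotype difference hinders that, so the low share is partly built into the rule.

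Osr2, a transcription factor gene of kidney development, shows what the term does. It was at 38.9, 40.0, 39.8 and 40.1 CPM in wildtype 1, 2, 3 and 5 and 51.9 CPM in wildtype 4, and at 26.5 and 25.3 CPM in Grhl2KO_Myc 1 and 2 and 33.8 and 36.3 CPM in Grhl2KO_Myc 3 and 4. Within each genotype the low libraries were the highest. Osr2 fell in Grhl2KO_Myc by 0.60 on the log2 scale with the term (SE 0.046, edgeR adjusted p = 0.00021) and was at -0.46 without it (edgeR adjusted p = 0.071). Neither Osr2, which overlapped between the classes, nor any of the other 8 genes named for genotype stood apart by class. Elf5, a transcription factor gene of principal cells, was at 22.4, 23.6, 21.3 and 21.3 CPM in wildtype 1, 2, 3 and 5 and 19.8 CPM in wildtype 4. It was at 5.18 and 4.96 CPM in Grhl2KO_Myc 1 and 2 and 6.81 and 6.16 CPM in Grhl2KO_Myc 3 and 4, without overlap of genotypes, and fell by 1.95 (SE 0.11, edgeR adjusted p = 4.4e-05). Wfdc15b and Spink8 also fell (-1.57 and -0.85), and Slc4a5, Crisp1, Snhg4, Ccdc116 and Bex1 rose (1.86, 3.44, 1.24, 2.06 and 0.98), with edgeR adjusted p of at most 0.0013 when single libraries were left out. Ribosome biogenesis genes rose in 24 of 29 cases (3.28% of all genes did) with none falling (2.49%), beside a class median of 0.17. Grhl2 itself was at 24.1, 24.5 and 22.4 CPM in the low libraries, 29.4, 25.1, 25.7 and 25.4 CPM in wildtype 1, 2, 3 and 5 and 18.6 and 19.1 CPM in Grhl2KO_Myc 1 and 2, and with the split term its genotype difference was -0.34 (SE 0.097, edgeR adjusted p = 0.074).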

How the data were processed

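The 12 kidney libraries were prepared with the TruSeq RNA kit version 2 and sequenced, per the labels' protocols. Reads were aligned with HISAT2 to mm10, per the submitters' processing notes. The sources used here do not name the counting program or its annotation. The authors deposited raw counts per gene, not normalized. The 9 wildtype and Grhl2KO_Myc libraries entered 1 fit with terms for genotype and for the split (edgeR 4.0.16, R 4.3.3, TMM scaling, default expression filter). CPM and list scores (prior count 2) were computed from the counts, and the genotype term was tested at an adjusted p of 0.05. Coordinates are from GENCODE M21, which matched 90.6% of genes. The members and lists were chosen with earlier results of these data known.

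Named genes were the 3 markers and 15 others whatever their values, the 12 largest rises (5 qualified) and falls that stood apart outside the proximal tubule lists with at least 1 CPM, up to 4 such members per list, and 5 genotype calls a direction. Other genes named were chosen after their values were seen, and some that the rule names are not reported here. Numbered gene models, pseudogenes, immune receptor segments and sex-linked markers were left out. The procedure was tested on simulated data in which the split was known beforehand, so its choice from the data was not tested. Replicates of a group differed by a chi-square of at least 13.6 per degree of freedom. Each library was treated as 1 replicate, although this value does not show that each came from a mouse of its own. P-values measure the spread between these samples, and those with the split term take the split as given. Alternatives included other scalings and filters, DESeq2 1.42.0, limma-voom 3.58.1, added terms and single libraries left out.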

Additional observations from a re-analysis of the deposited data

Results flagged for a closer look

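In 11 of 140 groups of 4 or 5 libraries tested, 1 library stood far from the rest of its genotype by a test of gaps that chance flags in about 1 in 20 groups. In 8 of the 11 that library was wildtype 4, the only low wildtype library. Ocm, Ifi27l2a, Aire, Oxgr1 and, through its list, Umod met a naming rule that asked each low library, wildtype 4 included, to lie outside all 6 others by a 2-fold fitted difference, so a gap at wildtype 4 was built into the choice of these genes and is not a finding. Umod was at 159.6 CPM there and Oxgr1 at 11.3 CPM, below the other wildtype libraries, while Ocm at 1.13 CPM, Ifi27l2a at 12.4 CPM and Aire at 4.59 CPM were above them. The scores of the thick ascending limb (-0.45), intercalated cells (-0.67) and cytosolic ribosomal proteins (0.35) also set wildtype 4 apart. Pecam1 was high in Grhl2KO_Myc 2 at 127 CPM, and Nlrc5 was high in wildtype 5 at 5.57 CPM and in Grhl2KO_Myc 2 at 6.11 CPM.

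For 3 of the reported genes named by rule for the split, wildtype 4 lay outside the range of the other wildtype libraries. In these genes both low Grhl2KO_Myc libraries lay outside the range of Grhl2KO_Myc 1 and 2, on the opposite side. Genes named after their values were seen, such as Scnn1a, were not searched. Grhl2 was at 24.1 CPM in wildtype 4, below the other wildtype libraries. Vcam1 at 28.6 CPM and Fos at 4.07 CPM were above them. These differences were not tested.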

How the results depend on the processing

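No fitted difference of a named gene that stood apart or was called changed sign under any alternative run, while Fos, Grhl2, Lcn2, Pecam1 and Vcam1, which overlapped between the classes, each did under at least 1. The 423 lower genes lay between 415 and 587 and the 50 higher genes between 56 and 113 with single libraries left out, where fewer libraries must separate. The higher count was 138 with no filter beyond 1 count, 3 with a filter of 1 CPM and 21 with all 12 libraries, and the counts were 131 higher and 866 lower at 1.5-fold. With wildtype 4 as the only low library (chosen after seeing the data) they were 756 and 1334, and with wildtype 1 to 4 only (likewise) 819 and 1414, where fewer libraries must separate. Of the 473 genes, 320 of the 466 refitted stood apart without wildtype 4.

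Genotype calls were 1371 higher and 1220 lower with DESeq2, 465 and 298 with a term for Y-linked transcripts, and 366 lower without the split. With single libraries left out they lay between 366 and 1220 higher and between 193 and 1077 lower: 429 and 293 without wildtype 2, 499 and 378 without wildtype 3, 1220 and 1077 without wildtype 4, 366 and 193 without Grhl2KO_Myc 1, 470 and 401 without Grhl2KO_Myc 2, 508 and 359 without Grhl2KO_Myc 3 and 469 and 299 without Grhl2KO_Myc 4.

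Replicate numbers did not pair the samples (correlations of -0.17, 0.11, -0.23 and 0.34 for numbers 1 to 4). With the replicate block 470 of the 473 genes that stood apart kept their sign, 13 genes were called higher and 11 lower by genotype, the calls of Bex1, Wfdc15b, Spink8 and Osr2 were lost (edgeR adjusted p 0.051 to 0.096), and list medians were -0.28 for nuclear oxidative phosphorylation, -0.57 for the mitochondrial genome, -0.37 for the distal convoluted and connecting tubule, 0.16 for principal cells, -0.34 for intercalated cells, 0.17 for ribosomal proteins and 0.28 for progenitor and patterning genes.

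Without the genotype term the medians were -0.46 (thick ascending limb), -0.39 (distal convoluted and connecting tubule), -0.072 (principal cells), -0.48 (intercalated cells) and 0.34 (ribosomal proteins). With wildtype 4 as the only low library they were -0.44 (thick ascending limb), -0.056 (principal cells), -1.13 (intercalated cells) and 0.47 (ribosomal proteins), and with wildtype 1 to 4 only -0.042 (nuclear oxidative phosphorylation), -0.057, -1.09 and 0.45 (principal and intercalated cells and ribosomal proteins). With single libraries left out the medians ranged from -0.43 to -0.33 (thick ascending limb), -0.32 to -0.21 (distal convoluted and connecting tubule), -0.76 to -0.19 (intercalated cells), 0.11 to 0.32 (ribosomal proteins) and 0.043 to 0.15 (progenitor and patterning genes). The cause of these shifts was not tested. There were 3 low libraries, 2 of them of 1 genotype, and low counts limit the values of genes below 1 CPM.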
